A study of Mus musculus with 4 samples.

Results

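Type I interferon response genes are the transcripts that cells switch on after interferon alpha or beta binds its receptor. A set of 32 of them was followed here through every cell type of 4 dissociated mouse melanomas. The set was given as a list of names, and all 32 genes were found by symbol among the 31053 genes of each count matrix. The tumours were grown from B16F10, a pigmented melanoma line of the mouse, and the labels name no sort or gate before the capture of single cells in droplets. The study asked what doxorubicin, an anthracycline that damages DNA, fasudil, given to raise the uptake of dying cells by phagocytes, and an antibody against PD-1 do to the cells of a tumour that resists checkpoint blockade. Each of 4 groups was read as 1 library: a control, aPD-1 with the antibody alone, D+F with doxorubicin plus fasudil, and D+F+P with all 3 agents. Where values follow each other without names, they stand in that order, and the 3 treated libraries are the last 3. The labels give neither the number of mice pooled into a library nor the host strain, the doses, the times or what the control mice received. With 1 library per group there is no replicate check on any difference between libraries. No test between treatments was therefore possible, and every interval is a 95% interval for counting error alone.

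In textbook terms, interferon alpha and beta bind the receptor chains Ifnar1 and Ifnar2 and activate Jak1 and Tyk2. The kinases act on Stat2, which works with Irf9 in the complex ISGF3. That complex binds interferon-stimulated response elements in the promoters of many antiviral genes. Interferon gamma, made by T and NK cells, acts on gamma-activated sites instead. The targets of both interferons overlap widely, so that none of the 32 genes is a pure reporter of either. In tumours the type I response is best known from dendritic cells that take up tumour DNA and prime CD8 T cells, and from tumour cells dying under anthracyclines.

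The depth and cell content of the libraries differed. After filtering, 2275, 2214, 2483 and 2443 cells remained in the 4 libraries, with a median of 16143, 9563.5, 12882 and 1866 UMIs (unique molecular identifiers, 1 per captured RNA molecule). Pairs of libraries shared 1 to 14 cell barcodes. The label gives the cell type as melanoma, yet cells with melanoma markers made up 84.2%, 50.1%, 69.8% and 21.9% of the libraries in that order, and the rest were mostly leukocytes. Clusters were named from marker genes, and each name is written "-like" because it rests on transcripts alone. The 32 genes and the lists of other type I interferon-induced genes and of genes led by interferon gamma were left out of the clustering. Interferon-related genes outside these lists, such as the sensor Zbp1, were not. All 7 melanoma markers (Pmel, Mlana, Tyrp1, Dct, Tyr, Mitf and Sox10) were detected in each of the 7 melanoma-like clusters. The CD8 T-like class held only 9 control cells, the conventional DC-like class 3 and the regulatory T-like class 15, so these classes were compared between treated libraries only. Levels are CPM, the UMIs of a gene in every 1000000 gene UMIs of a cell class in a library. A 5′ library gives each captured molecule 1 UMI whatever the length of its transcript, so levels were not divided by gene length.

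Promoters of the members were read first, because the response element is what links the genes to 1 signalling complex. RefSeq windows from 250 bases before to 50 bases after the start site, on build GRCm38.p6, were matched for 25 of the 32 genes. The response element was searched as GAAA, any 2 bases and GAAA again, or TTTC, any 2 bases and TTTC on the other strand, and 13 of the 25 members (52%) held at least 1 match. Among all 27025 genes with such a window, 3.99% held one. The gamma-activated site, searched as the palindrome TTCNNNGAA, was in 7 of the 25 (28%) against 9.55% of all genes. Adjoining matches can share bases. A match describes the letters of the window and not a bound site. The 6 stretches that follow belong to Isg15 and Ifit1, which hold 3 and 2 matches, and to genes with some of the largest differences between melanoma-like cells of the libraries, each with its matches in capitals.

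Isg15, chr4:156200850-156200909, minus strand, 91 to 32 bases before the start site: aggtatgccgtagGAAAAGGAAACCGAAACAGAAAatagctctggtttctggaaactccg
Ifit1, chr19:34640779-34640838, plus strand, 110 to 51 bases before the start site: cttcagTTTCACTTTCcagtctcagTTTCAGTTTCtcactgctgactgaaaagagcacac
Oas3, chr5:120777700-120777759, minus strand, 100 to 41 bases before the start site: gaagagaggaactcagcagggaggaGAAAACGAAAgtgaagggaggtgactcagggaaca
Phf11b, chr14:59341346-59341405, minus strand, 75 to 16 bases before the start site: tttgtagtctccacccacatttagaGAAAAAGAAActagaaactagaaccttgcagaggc
Stat2, chr10:128270251-128270310, plus strand, 247 to 188 bases before the start site: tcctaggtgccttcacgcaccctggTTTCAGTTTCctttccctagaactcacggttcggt
Rsad2, chr12:26456538-26456597, minus strand, 145 to 86 bases before the start site: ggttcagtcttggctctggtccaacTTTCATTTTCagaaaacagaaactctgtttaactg

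In the Isg15 stretch the 3 matches run into each other, while the Ifit1 stretch holds 2 matches apart from each other. Oas3, Phf11b, Stat2 and Rsad2 each have a single match. The response element was as frequent in a separate list of other type I interferon-induced genes, at 26 of 50 (52%). A list of genes led by interferon gamma held the response element in 9 of 22 windows (40.9%) and the gamma-activated site in 11 of 22 (50%).

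Myeloid cells carried the highest levels of the 32 genes and NK-like cells the lowest. Summed over the set and over the libraries, the level was 15552 CPM (15326 to 15780) in 284 monocyte/macrophage-like cells. It was 14966 CPM in 35 neutrophil-like, 10391 in 56 plasmacytoid DC-like, 9281 in 166 regulatory T-like and 8134 in 104 conventional DC-like cells. An unnamed myeloid cluster led by Cxcl2, Cxcl3 and Mmp12 stood at 13529 CPM. Fibroblast-like cells stood at 7163 CPM and melanoma-like cells at 5445 CPM (5430 to 5459). Migratory DC-like cells were at 4111, CD8 T-like cells at 2355 and NK-like cells at 1304 CPM (1228 to 1385). Unnamed lymphocyte clusters with a median of 6.73% to 7.70% of UMIs from ribosomal protein genes were left out of the named classes. Those nearest CD8 T cells by markers were at 3608 and 2135 CPM, and another nearest NK cells at 2460 CPM. They held 601, 166 and 282 of the 2443 D+F+P cells. The intervals of the monocyte/macrophage-like and neutrophil-like classes overlap, so the order of those neighbours cannot be read from these counts.

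The same sum was made of different genes in different cells. Ifitm3, a membrane protein that blocks viral fusion, gave 43.3% of the member UMIs of melanoma-like cells, and Bst2, the tetherin that holds budding virions, a further 22.4%. In plasmacytoid DC-like cells Bst2, a known marker of that cell type in the mouse, gave 52.4%. Isg15, the ubiquitin-like modifier, led in neutrophil-like cells with 31.8%. Ifi27l2a, a small interferon-induced protein of mitochondria and nuclear membrane, gave 70.2% in regulatory T-like and 58.5% in CD8 T-like cells.

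Without the 3 most abundant members over all cells (Ifitm3, Bst2 and Isg15), the summed level was 8376 CPM in regulatory T-like and 7976 CPM in monocyte/macrophage-like cells. Melanoma-like cells were then at 1235 CPM and NK-like cells at 852 CPM. Of the 32 genes, 14 had their highest level among the 10 named classes in neutrophil-like cells, 7 in monocyte/macrophage-like, 6 in plasmacytoid DC-like and 2 in migratory DC-like cells. The neutrophil-like count is weakly based, since 20 of the 35 cells came from the control library and Oas2, Oas3 and Ddx58 rested on 3 UMIs each, Cmpk2 on 4 and Ifit1 on 5. The other 3 were Phf11b in conventional DC-like, Ifi27l2a in regulatory T-like and Herc6 in melanoma-like cells. Herc6 encodes the ligase that attaches Isg15 to proteins in the mouse, and its level was 56.4 CPM in melanoma-like against 12.1 CPM in NK-like cells. Melanoma-like cells were the lowest of the 10 classes for Ifi27l2a (7.63 CPM), Samhd1 (41.2 CPM) and Irf9 (23.2 CPM).

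**Figure D1:**
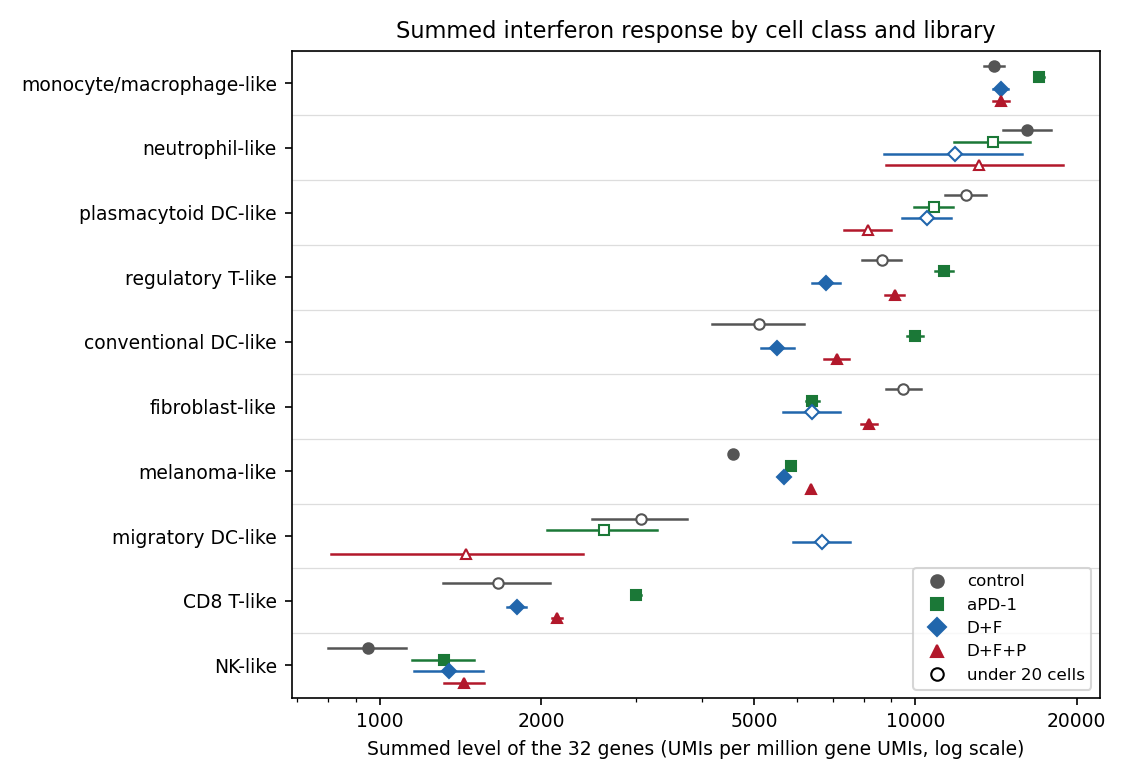
Summed level of the 32 genes in CPM of the class by cell class and library, with 95% intervals for counting error. Monocyte/macrophage-like cells lie between 14020 and 17035 CPM in the 4 libraries, and NK-like cells between 948 and 1433 CPM.

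**Figure D2:**
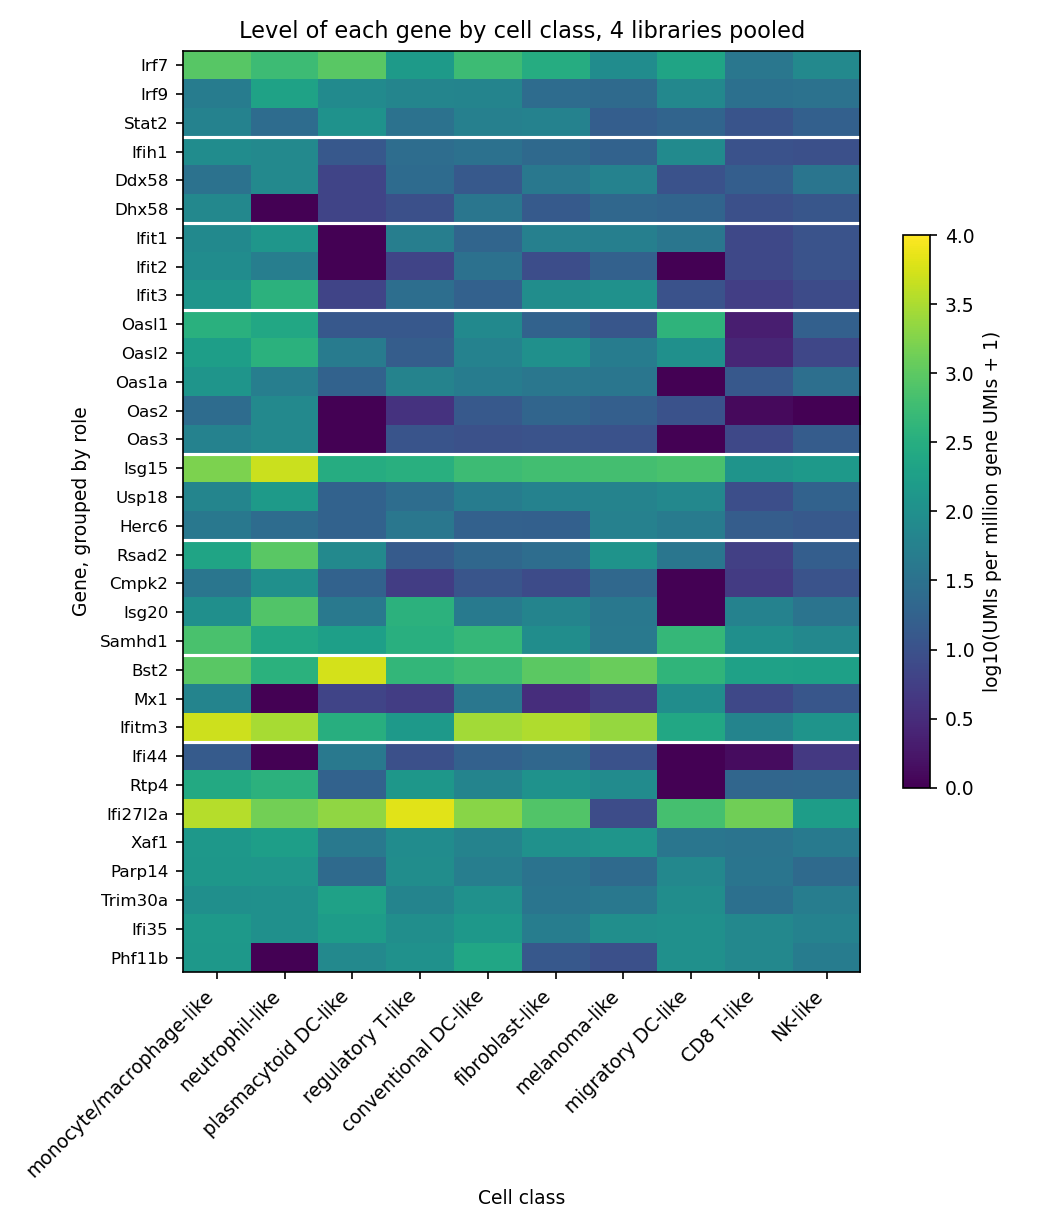
Level of each of the 32 genes by cell class over the 4 libraries together, coloured by log10 of CPM plus 1. Ifi27l2a stands at 6513 CPM in regulatory T-like cells and at 7.63 CPM in melanoma-like cells.

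In melanoma-like cells the set was higher in every treated library than in the control. The summed level was 4570 CPM in the control, 5851 in aPD-1, 5671 in D+F and 6377 in D+F+P. The ratio to control was 1.28-fold for aPD-1 (log2 0.36, 0.35 to 0.37), 1.24-fold for D+F (log2 0.31, 0.30 to 0.32) and 1.40-fold for D+F+P (log2 0.48, 0.47 to 0.49). The 3 comparisons share the control library, so they are not independent of each other. D+F+P stood 1.12-fold above D+F and 1.09-fold above aPD-1.

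Gene by gene, the control library had the lowest level of the 4 for 27 of the 32 members, and D+F+P had the highest for 18. At least 1.5-fold above control were 9 of 32 members in aPD-1, where 6.7% of the 12257 genes counted were as much higher. In D+F the count was 6 of 32, against 7.53% of 12490 genes, and in D+F+P it was 13 of 32, against 9.89% of 12127 genes. No member was 1.5-fold or more below control in any of the 3, where 6.1%, 5.04% and 10.6% of all genes were. The median log2 ratio of the members was 0.35, 0.36 and 0.46, and that of all genes counted was -0.05, -0.06 and -0.09. All 32 members had enough UMIs to be counted in melanoma-like cells.

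**Figure D3:**
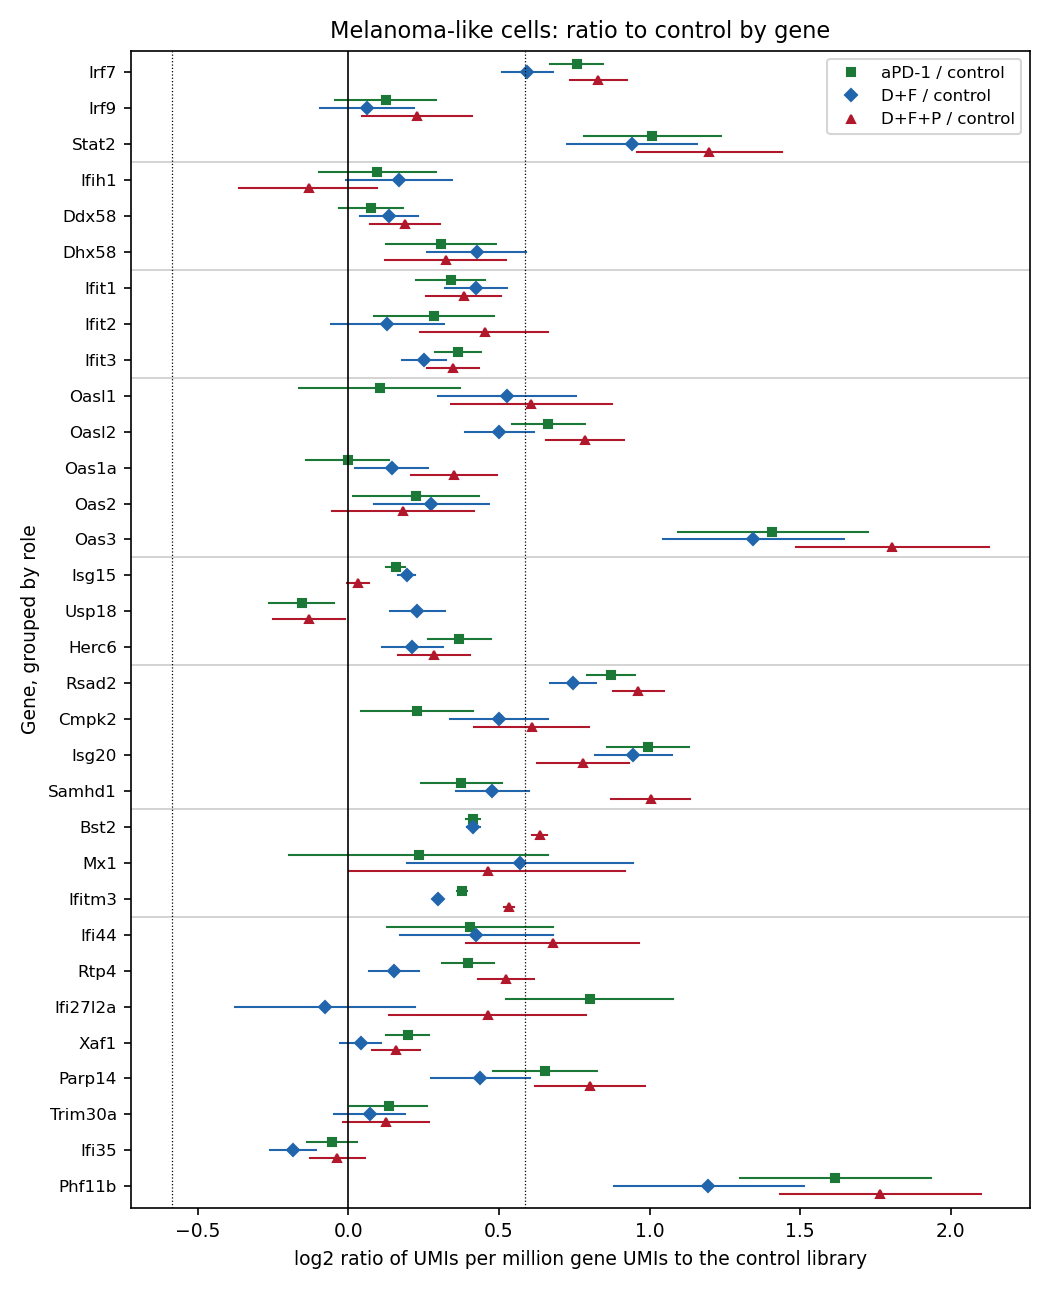
Ratio of each treated library to the control library for the 32 genes in melanoma-like cells, on a log2 scale, grouped by role, with 95% intervals for counting error and dotted lines at a 1.5-fold difference. Oas3, Phf11b and Stat2 lie farthest to the right, while Isg15, Usp18 and Ifi35 lie near 0.

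Among the transcription factors, Stat2, the member of the complex ISGF3 that brings the activating domain, was at 8.64 CPM in control and at 17.4, 16.6 and 19.8 CPM in the treated libraries. The ratios to control were 2.01-fold, 1.92-fold and 2.30-fold, so the 3 treated libraries lay close together and apart from the control. Irf7, the factor that amplifies interferon alpha production, showed the same order at a higher level, with 62.4 CPM in control and 106, 94.3 and 111 CPM in the treated libraries. Irf9, the DNA-binding partner in ISGF3, differed far less, at 22.0, 23.9, 22.9 and 25.7 CPM. Its largest ratio was log2 0.23 (0.04 to 0.41) in D+F+P.

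The OAS family includes the enzymes that make 2-5A, the messenger that activates RNase L, and its members differed unevenly between libraries. Oas3, the long enzyme of the family, was at 4.12 CPM in control and at 10.9, 10.4 and 14.4 CPM in the treated libraries. Its ratio to control in D+F+P was log2 1.80 (1.49 to 2.13), the largest of the 32 there, although the interval overlaps that of Phf11b. Oasl2, an OAS-like protein, was at 34.4, 54.5, 48.6 and 59.3 CPM, with 1 library, the control, below the rest. Oas1a was indistinguishable from control in aPD-1 (33.9 against 34.0 CPM) and stood at 43.4 CPM in D+F+P. Oas2 lay between 13.5 and 16.4 CPM in the 4 libraries. Oasl1, which restrains translation of Irf7, was at 8.82, 9.48, 12.7 and 13.4 CPM, so that aPD-1 sat with the control.

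Enzymes that act on nucleotides or nucleic acids had the largest summed ratio of any role, at log2 0.74, 0.70 and 0.90 in the treated libraries. Rsad2, or viperin, which makes a chain-terminating nucleotide, was at 72.8 CPM in control and at 133, 122 and 142 CPM in the treated libraries. Its neighbour on chromosome 12, Cmpk2, a mitochondrial kinase of nucleotides, was at 17.1 CPM in control and highest in D+F+P at 26.1 CPM. Isg20, an RNA exonuclease, was about as high in aPD-1 and D+F, at 48.4 and 46.8 CPM against 24.3 CPM in control, and lower in D+F+P at 41.7 CPM. Samhd1, which hydrolyses deoxynucleotides, differed from that pattern. It was at 30.9 CPM in control, 40.1 in aPD-1, 43.0 in D+F and 62.0 in D+F+P, and it was the only member at least 1.5-fold higher in D+F+P than in aPD-1 (log2 0.63, 0.49 to 0.77), where 5.54% of 11917 genes were higher and 4.3% lower. Against D+F, no member passed 1.5-fold in either direction, where 5.35% of 12188 genes were higher and 4.91% lower.

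The abundant membrane factors Ifitm3 and Bst2 gave 43.3% and 22.4% of the member UMIs of melanoma-like cells. They largely set the ratio of the sum, so their likeness to it is no separate result. Ifitm3 was at 1967 CPM in control and at 2555, 2417 and 2846 CPM in the treated libraries. Bst2 was at 974 CPM in control, 1297 in both aPD-1 and D+F, and 1512 in D+F+P, and it passed 1.5-fold in D+F+P alone (log2 0.64, 0.61 to 0.66). In both genes D+F+P was the highest library and the control the lowest. Mx1, a dynamin-like GTPase, was scarce at 3.30 to 4.89 CPM. With the 3 most abundant members left out, the summed ratios to control were log2 0.37, 0.30 and 0.45.

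The Isg15 pathway was nearly level, although Isg15 is among the best known targets of the response. Isg15 was at 588 CPM in control, 656 in aPD-1, 673 in D+F and 601 in D+F+P. In D+F+P the ratio to control was log2 0.03 (-0.01 to 0.07), so the library with the highest sum had an Isg15 level indistinguishable from control. Usp18, the protease that removes Isg15 and blocks the receptor, was at 58.9 CPM in control, 52.9 in aPD-1, 69.0 in D+F and 53.8 in D+F+P. Herc6 was at 49.4, 63.8, 57.2 and 60.2 CPM. Together the 3 genes gave log2 0.15, 0.20 and 0.04.

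Sensors of viral RNA differed little as well. Ddx58 (RIG-I) was at 54.7, 57.6, 60.1 and 62.4 CPM, and Ifih1 (MDA5) at 16.7, 17.8, 18.7 and 15.2 CPM in the 4 libraries. Dhx58 (LGP2), which regulates both, was at 17.3 CPM in control and between 21.4 and 23.2 CPM in the treated libraries. None of the 3 passed 1.5-fold in any comparison with control. The IFIT proteins, which bind viral RNA ends, were modestly higher: Ifit1 was at 43.0 CPM in control and between 54.3 and 57.6 CPM elsewhere, and Ifit3 at 91.1 against 109 to 117 CPM. Ifit2, at 14.7 CPM in control and 20.2 CPM in D+F+P, was above control by a margin that the interval clears in aPD-1 and D+F+P but not in D+F (log2 0.13, -0.06 to 0.32).

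Of the remaining members, Phf11b, a PHD-finger protein of a cluster of similar genes, differed most. It was at 3.88 CPM in control and at 11.9, 8.86 and 13.2 CPM in the treated libraries, and its ratio in aPD-1 was log2 1.62 (1.30 to 1.94). Parp14, an ADP-ribosyltransferase, was at 17.1, 26.9, 23.1 and 29.8 CPM. Ifi44 was at 7.41 CPM in control and at 9.82 to 11.9 CPM in the treated libraries, and Rtp4, a receptor chaperone, at 73.2 against 81.3 to 105 CPM. Xaf1 (116 to 133 CPM) and Trim30a (37.3 to 40.9 CPM) were lowest in control by small margins. Ifi35 was the 1 member highest in control, at 96.7 CPM against 93.1, 85.2 and 94.3 CPM. Ifit3, Oas1a, Trim30a, Phf11b and Ifi27l2a have near-identical neighbours in the mouse genome, so their levels are uncertain where reads could be shared.

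The difference in the summed level was spread over the melanoma-like cells rather than held by a few. Each cell was thinned to 1000 UMIs so that depth could not set the share of cells, and 6, 7, 30 and 7 shallower cells were left out. At least 5 of the 1000 UMIs came from the set in 43.4% (41.1 to 45.6) of 1910 control cells and in 59.6% (56.7 to 62.5) of 1102 aPD-1 cells. The share was 54.7% (52.3 to 57.1) of 1704 D+F cells and 62.8% (58.5 to 66.9) of 529 D+F+P cells, and the control interval overlaps none of the others. At the same depth 2.5% to 5.71% of NK-like cells reached that bound. The median cell held 4 member UMIs in control, 5 in aPD-1 and D+F and 6 in D+F+P. The cell at the 10th percentile held 1 member UMI in control and 2 in each treated library. The top 10% of cells held 22.5% to 25.7% of the member UMIs in every library. Ifitm3 and Bst2 weigh most in these counts. At 1000 UMIs, Ifitm3 was seen in 79.0% of control and 88.3% of D+F+P cells, and Bst2 in 59.5% and 74.7%. Isg15 was seen in 37.8% and 38.6%. Oas3, Stat2 and Phf11b were seen in 0.58%, 0.73% and 0.37% of control cells and in 1.32%, 2.46% and 1.13% of D+F+P cells. How such scarce members are spread over cells cannot be read at this depth.

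The libraries drew their melanoma-like cells from different clusters. The largest cluster was cluster 0 in the control, led by genes of DNA replication and mitosis such as Top2a and Mki67, cluster 4 in aPD-1 and D+F, led by genes of low oxygen such as Car9 and Bnip3, and cluster 3 in D+F+P, led by Neat1 and Malat1. Within each of the 7 clusters the summed level was above control in each treated library. Without the 3 most abundant members this held in 6 of 7 clusters for aPD-1, 7 of 7 for D+F and 6 of 7 for D+F+P, the exception being cluster 5, at 1972 CPM in control, 1926 in aPD-1 and 1941 in D+F+P. The ratio ranged over clusters from 1.13 to 1.43-fold in aPD-1, from 1.11 to 1.36-fold in D+F and from 1.21 to 1.66-fold in D+F+P. Cluster 2, whose leading genes include Gbp2, Cxcl10 and Zbp1, had the highest level in every library, at 5655 CPM in control and 8075, 7686 and 8534 CPM in the treated libraries. The higher level in D+F+P than in aPD-1 did not hold everywhere: it was reversed in clusters 0, 1 and 6, at log2 -0.072, -0.026 and -0.083.

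**Figure D4:**
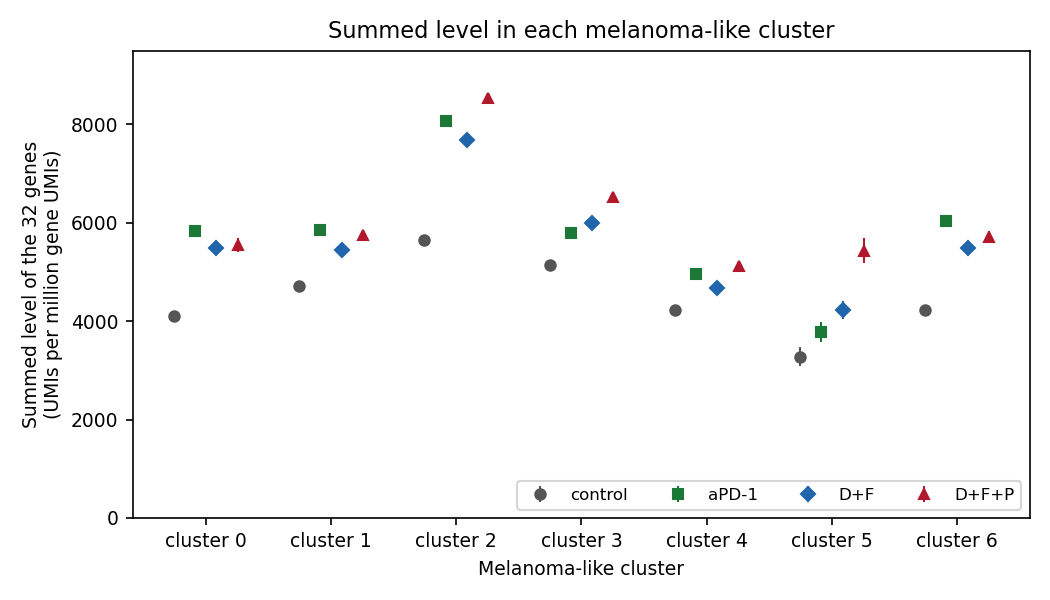
Summed level of the 32 genes in CPM in each of the 7 melanoma-like clusters, by library, with 95% intervals for counting error. The control is the lowest library in each cluster, and cluster 2 is the highest cluster in each library.

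RNA of leukocytes in the droplets of melanoma-like cells also moved with the groups. Ccl5 was left out of its measure after its level had been seen, at 157, 195, 181 and 279 CPM in melanoma-like cells. Measured by the other 11 leukocyte transcripts, leukocyte RNA made up 0.0558% of the UMIs of melanoma-like cells in control, 0.172% in aPD-1, 0.124% in D+F and 0.358% in D+F+P. With Ccl5 the shares were 1.65%, 1.56%, 1.69% and 2.52%. At the shares without Ccl5 it would bring 4.21, 10.9, 5.45 and 12.2 CPM of the summed members, beside summed levels of 4570 to 6377 CPM. With Ccl5 kept and each library's pooled RNA as the source, free RNA came to 42.9% in control and 7.72% to 17.7% in the treated libraries. The summed levels after its subtraction were 4518, 5842, 5693 and 6451 CPM. Melanoma-like cells supplied most of that pooled RNA, so its subtraction could move their levels only a little and is no check on them. In control, Ccl5 gave 5146 UMIs and the other 11 transcripts 140, so the 42.9% rests almost wholly on Ccl5. The higher shares with Ccl5 would give each member a larger part from leukocyte RNA, which was not computed gene by gene. For any single member except Ifi27l2a, the estimate without Ccl5 came to at most 2.02% of the level in any library. For Ifi27l2a that estimate came to 19.7%, 42.3%, 28.7% and 57.2% of the 6.35, 11.1, 6.01 and 8.76 CPM measured in the 4 libraries, and 38.0% of its control UMIs came from 1 cell, so that gene is not read further in melanoma-like cells.

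Monocyte/macrophage-like cells had a high level in every library and smaller, less even differences between libraries. The summed level was 14020 CPM in 33 control cells, 17035 in 127 aPD-1 cells, 14445 in 71 D+F cells and 14437 in 53 D+F+P cells. The aPD-1 library stood 1.22-fold above control (log2 0.28, 0.21 to 0.35), while D+F and D+F+P were indistinguishable from control at log2 0.04 each. RNA from other cells, measured by pigment transcripts, made up 26.5% of the UMIs of the control cells and 5.48%, 6.23% and 3.40% of those of the treated cells. With it subtracted, the summed levels were 17400, 17677, 15035 and 14752 CPM, and the ratios to control were log2 0.04 (-0.03 to 0.11), -0.20 (-0.28 to -0.12) and -0.23 (-0.31 to -0.14). The higher level in aPD-1 therefore did not hold after subtraction, and the D+F and D+F+P libraries were then below control. Of the members with enough UMIs, 14 of 30 were at least 1.5-fold higher and 1 lower in aPD-1 than in control, where 20.6% of 3889 genes were higher and 20.4% lower. The counts were 9 of 25 higher and 1 lower in D+F, against 18.3% and 20.2% of 2678 genes. They were 6 of 24 higher and 4 lower in D+F+P, against 22% and 26% of 2536 genes, which is near the background. Median log2 ratios of the counted members were 0.48, 0.40 and 0.09, beside -0.05, -0.04 and -0.04 over all genes.

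Samhd1 was above control in each treated library, at 327 CPM in control, 566 in aPD-1, 831 in D+F and 1117 in D+F+P. The ratio to control was log2 1.77 (1.34 to 2.23) in D+F+P, and the order of the 4 libraries was the one seen in melanoma-like cells. Rsad2 was at 75.4, 237, 319 and 164 CPM in the same order, so D+F and not D+F+P was highest. Oasl1 was at 182 CPM in control and at 422, 363 and 288 CPM in the treated libraries. Rtp4 was highest in aPD-1, at 373 CPM against 144 in control, 225 in D+F and 155 CPM in D+F+P. Irf7 was likewise highest in aPD-1, at 1130 CPM against 646 to 820 CPM in the others. Ifit2 had 0 UMIs in the 33 control cells and was at 124, 90.6 and 53.2 CPM in the treated libraries, at least 6.59-fold, 4.81-fold and 2.82-fold higher at a floor of 3 UMIs for the control.

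Other members stood apart in 1 library only, or were lower than in control. Isg15 was at 2262 CPM in D+F and between 1410 and 1487 CPM in the other 3. Ifit1 had 1 UMI in D+F+P, or 4.43 CPM, against 12 UMIs, or 75.4 CPM, in control, a ratio of log2 -4.09 with a counting interval of -9.51 to -1.33. Of those 12 control UMIs, 58.3% came from 1 cell. Ifi27l2a was at 3876, 4537, 2128 and 3076 CPM. Bst2 was at 1093, 1030, 926 and 723 CPM, lowest in D+F+P for the class as a whole (log2 -0.60, -0.91 to -0.28). Ifitm3, at 4648 to 5142 CPM, was the flattest of the abundant members in the class as a whole, unlike in melanoma-like cells. Mx1 was at 25.1, 59.2, 67.0 and 97.5 CPM on only 4 control UMIs.

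This class joins sub-cluster 0, led by the complement genes C1qa, C1qb and C1qc, with sub-cluster 5, led by Lyz2 and Ccl6, and the mix differed: 11 and 22 cells in control, 66 and 61 in aPD-1, 32 and 39 in D+F and 16 and 37 in D+F+P. In sub-cluster 0 the summed level was 7864, 11385, 13556 and 8223 CPM, and in sub-cluster 5 it was 21530, 25494, 15485 and 17050 CPM. Relative to control, D+F was therefore higher in sub-cluster 0 and lower in sub-cluster 5, and the pooled value hides both. Samhd1 was above control in all 3 treated libraries in each sub-cluster, at 114, 309, 351 and 330 CPM in sub-cluster 0 and 586, 950, 1394 and 1448 CPM in sub-cluster 5. Bst2 was lowest in aPD-1 in sub-cluster 0, at 1520, 1113, 1381 and 1318 CPM. In sub-cluster 5 it was lowest in D+F, at 572, 907, 393 and 472 CPM. The lowest Bst2 level of the class as a whole, in D+F+P, was therefore found in neither sub-cluster. Ifitm3 was at 2012, 2946, 3522 and 1962 CPM in sub-cluster 0 and at 7865, 8275, 6413 and 6479 CPM in sub-cluster 5. Its flat level in the whole class hides both. Pigment transcripts, which macrophages do not make, stood at 4424 CPM in the control cells of sub-cluster 0 and at 227 to 547 CPM in the other 7 sets of cells. Their part in the lower control level of sub-cluster 0 was not tested.

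Over the libraries together, Ifi27l2a gave most of the set in T-like cells. In D+F alone it was level with the other 31 members in CD8 T-like cells, at 899 against 900 CPM. In T-like, monocyte/macrophage-like and conventional DC-like cells, each class taken as a whole, it was highest in the aPD-1 library. NK-like cells did not share that order, at 125, 130, 176 and 202 CPM in the 4 libraries. Nor did an unnamed lymphocyte cluster led by Ccl1, Tnfsf11 and Ccr7, at 1431, 1874, 2838 and 2964 CPM in 4, 16, 17 and 28 cells. The unnamed myeloid cluster led by Cxcl2, Cxcl3 and Mmp12 was at 2689, 4298, 1166 and 4415 CPM, highest in D+F+P. Within the CD8 T-like class, sub-cluster 3 was highest in D+F, at 1798 CPM against 1283 in aPD-1 and 1227 in D+F+P. In all CD8 T-like cells Ifi27l2a was at 1965 CPM in aPD-1, 899 in D+F and 1175 in D+F+P, and in regulatory T-like cells at 8216, 4403 and 6345 CPM. Conventional DC-like cells gave 2551, 1055 and 1667 CPM in the same libraries. The ratio of aPD-1 to D+F was 2.19-fold in CD8 T-like (log2 1.13, 1.04 to 1.22), 1.87-fold in regulatory T-like, 2.13-fold in monocyte/macrophage-like and 2.42-fold in conventional DC-like cells. In monocyte/macrophage-like cells the gap lay in sub-cluster 5, at 7703 CPM in aPD-1 against 1890 in D+F, whereas sub-cluster 0 was at 2423 and 2331 CPM and lowest of the treated libraries in D+F+P, at 1737 CPM. For the other 31 members together the same ratio was 1.16, 1.28, 1.01 and 1.66-fold. Cells with at least 1 Ifi27l2a UMI made up 82.1%, 68.3% and 70.4% of CD8 T-like cells in the treated libraries, at median depths of 6589, 6225 and 8947 UMIs. Thinned to 1000 UMIs, the shares in CD8 T-like cells were 70.6%, 49.1% and 51.9%.

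**Figure D5:**
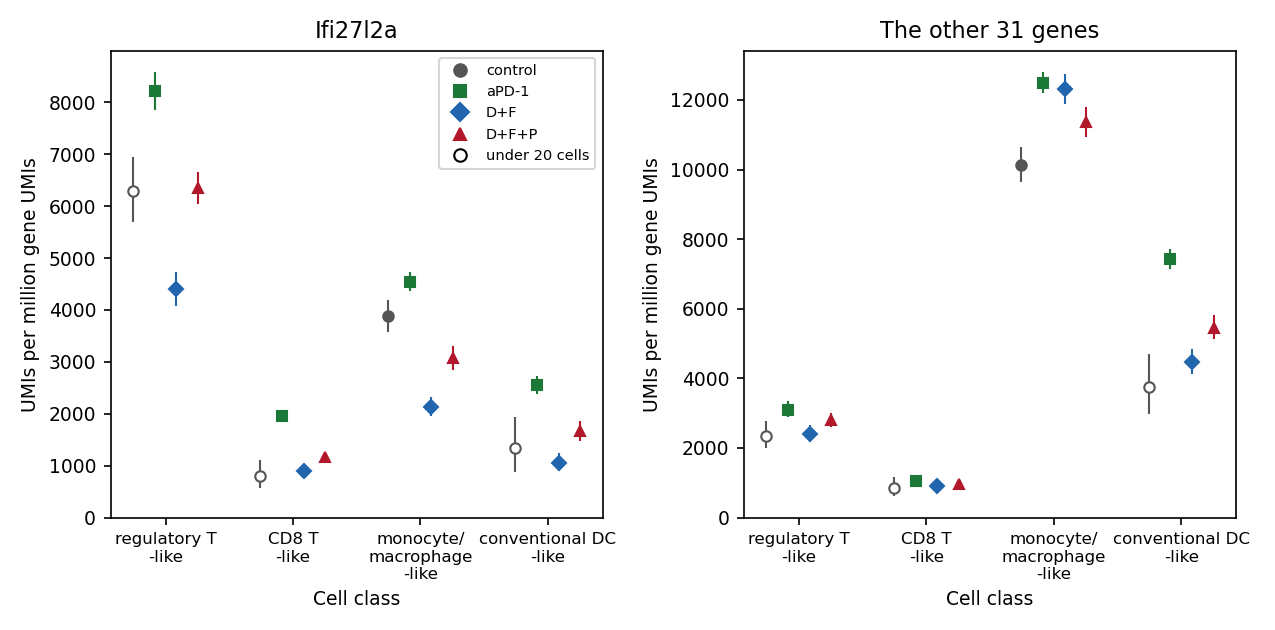
Level of Ifi27l2a in CPM by cell class and library, with 95% intervals for counting error. In regulatory T-like, CD8 T-like, monocyte/macrophage-like and conventional DC-like cells the aPD-1 library is highest and, of the treated libraries, D+F is lowest.

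With Ifi27l2a included, the summed level of CD8 T-like cells was highest in aPD-1, at 3006 CPM against 1799 CPM in D+F and 2141 CPM in D+F+P. Sub-cluster 8 held the most CD8 T-like cells in each of the 3. Without Ifi27l2a the libraries were at 1041, 900 and 966 CPM. Isg15 was higher in D+F and D+F+P, at 126 and 121 CPM, than in aPD-1, at 99.4 CPM. Samhd1 was at 100 CPM in aPD-1, 71.8 in D+F and 102 in D+F+P. Irf7 was at 45.7, 35.1 and 34.5 CPM and Isg20 at 69.8, 47.6 and 56.8 CPM, both highest in aPD-1. In regulatory T-like cells Bst2 was at 426, 421 and 457 CPM and Isg15 at 357, 289 and 344 CPM in the treated libraries.

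Another unnamed lymphocyte cluster, led by Trbv12-2, Ly6c2 and Cd69, with 28, 54, 90 and 140 cells in the 4 libraries, also split Ifi27l2a from the rest. Its summed level was 3779, 8663, 6653 and 5494 CPM. Ifi27l2a was 4.01-fold above control in aPD-1 (5874 against 1464 CPM), where the other 31 members together were 1.21-fold above it. Isg15 had another order, at 179 and 235 CPM in control and aPD-1 and at 762 and 560 CPM in D+F and D+F+P. Samhd1 was at 123 CPM in control and between 352 and 375 CPM in the treated libraries.

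Plasmacytoid DC-like cells, the professional producers of interferon alpha, numbered 12 to 17 in a library, too few to be compared by gene. Their summed level was 12403 CPM in control and 10826, 10498 and 8144 CPM in the treated libraries. Conventional DC-like cells were at 9976, 5522 and 7127 CPM in the treated libraries. In the latter cells Irf7 was at 658, 406 and 425 CPM, Isg15 at 664, 492 and 370 CPM and Ifitm3 at 3373, 1696 and 2633 CPM, each highest in aPD-1.

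NK-like cells held the least of the set, yet each treated library was above the control. The summed level was 948 CPM (144 UMIs in 38 cells) in control, 1314 in aPD-1, 1343 in D+F and 1433 in D+F+P. The ratios to control were log2 0.47 (0.16 to 0.78), 0.50 (0.18 to 0.83) and 0.60 (0.33 to 0.87). With cells named by their own markers the aPD-1 ratio was log2 2.47 and the D+F ratio 1.23. With cells thinned to 1000 UMIs the 3 ratios were 0.35, 0.35 and 0.17, and each interval then included 0. Few members had enough UMIs to be read alone: Isg15 was at 79.0, 118, 132 and 193 CPM, and Ifitm3 at 59.3, 112, 161 and 125 CPM. Bst2, at 159 to 250 CPM, showed no such order. By pigment transcripts, RNA from other cells made up 2.84%, 4.66%, 7.28% and 2.60% of the UMIs in the 4 libraries, and would bring 132, 277, 406 and 143 CPM of the set; with it subtracted the ratios were log2 0.36 (0.02 to 0.70), 0.29 (-0.08 to 0.65) and 0.65 (0.36 to 0.94). The unnamed cluster nearest NK cells, with 4, 44, 25 and 282 cells, was at 2195, 3580, 2161 and 2293 CPM in the 4 libraries, on 6 control UMIs. In fibroblast-like cells, 44 from aPD-1 and 25 from D+F+P, the latter were higher for Ifit3 (147 against 52.1 CPM), Oasl2 (165 against 74.8 CPM) and Isg15 (828 against 488 CPM). Ifi27l2a was the other way round in fibroblast-like cells, at 568 CPM in D+F+P and 898 CPM in aPD-1.

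Genes that act upstream of the set were read in melanoma-like cells as well. The receptor chain Ifnar1 was level at 15.8 to 17.8 CPM, and its partner Ifnar2 was at 47.6 CPM in control and 69.5 CPM in D+F+P. Of 13 genes that sense nucleic acids or relay the signal, 1 was higher in each treated library and 1 was lower in aPD-1, a share near the 6.7%, 7.53% and 9.89% of all genes. The higher gene was Zbp1, a sensor of Z-form nucleic acid, at 94.9 CPM in control and 207, 175 and 265 CPM in the treated libraries. Negative regulators were above control for 3, 1 and 3 of 11 genes. Socs1, the feedback inhibitor of JAK kinases, led them at 6.26, 17.4, 11.9 and 37.7 CPM.

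Transcripts of the interferons themselves were rare. Ifnb1 had 0 UMIs in control, a count that allows up to 3, and 26, 12 and 1 UMIs in the treated libraries. In aPD-1, 15 of its UMIs came from 7 of 59 cells of an unnamed myeloid cluster led by Cxcl2 and Mmp12, and 8 from 2 of 127 monocyte/macrophage-like cells. In D+F, 6 came from 2 of 71 monocyte/macrophage-like cells and 6 from 1 of 1734 melanoma-like cells. The other 19 genes for type I and III interferons had at most 7 UMIs in any library. The UMIs came from few cells, so they say little of a library as a whole.

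Genes led by interferon gamma had larger median ratios than the set. In melanoma-like cells 25, 23 and 30 of the 31 counted genes of that list were at least 1.5-fold above control in the treated libraries, and 1, 0 and 0 were as far below. Of all genes counted, 6.7%, 7.53% and 9.89% were as far above and 6.1%, 5.04% and 10.6% as far below. Medians of the list were log2 1.09, 0.87 and 1.49 beside the 0.35, 0.36 and 0.46 of the set. Gbp2, a GTPase that attacks vacuoles, was at 83.7, 210, 191 and 336 CPM, and the class II gene H2-Eb1 at 66.2, 269, 190 and 501 CPM. Irf1, an early target of interferon gamma, was at 87.7, 166, 185 and 212 CPM. Cxcl9, the T cell attractant, was an exception, at 18.5 CPM in control, 8.71 in aPD-1, 15.7 in D+F and 28.6 in D+F+P. In monocyte/macrophage-like cells 16 of 24, 18 of 23 and 14 of 20 counted genes of that list were higher and none lower. Of all genes counted there, 20.6%, 18.3% and 22% were higher and 20.4%, 20.2% and 26% lower.

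A list of other type I interferon-induced genes stood about as far from control as the set. In melanoma-like cells 16 of 50, 10 of 51 and 19 of 50 counted genes were at least 1.5-fold above control in the treated libraries, and 1, 0 and 4 were as far below. Over all genes the shares were 6.7%, 7.53% and 9.89% above and 6.1%, 5.04% and 10.6% below, so the 4 lower genes in D+F+P are near that share. Medians of the list were log2 0.40, 0.28 and 0.52. Ly6a, a membrane protein known as Sca-1, was at 5.07 CPM in control and 42.8, 23.0 and 90.8 CPM in the treated libraries, and the GTPase Gm4951 at 15.3, 41.7, 36.3 and 76.0 CPM. At the other end, Lgals9 was at 216, 148, 155 and 118 CPM and Slfn9 at 32.9, 23.2, 22.5 and 15.6 CPM.

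A response element in the promoter did not sort the members by their ratio in melanoma-like cells. The 13 members with a match had a median log2 ratio to control of 0.38 in D+F+P and the 12 without one had 0.61. At least 1.5-fold above control were 5 of the 13 and 7 of the 12. In aPD-1 the medians were 0.36 and 0.33, and in D+F 0.30 and 0.45. Isg15 and Ifit1, with 3 and 2 matches in the stretches printed above, were at log2 0.03 and 0.38 in D+F+P. Oas3 and Phf11b, with 1 match each, were at 1.80 and 1.76, but were printed for their large differences. Their values therefore cannot show how the number of matches goes with the ratio. Bst2, with 2 matches, was at 974 CPM in control and 1512 CPM in D+F+P, and Ifih1, with 1 match, at 16.7 and 15.2 CPM. Samhd1, Isg20, Ifit2 and Ifi35 had a gamma-activated site and no response element in the window. Of these, Ifi35 was not higher in the treated libraries, at 96.7 CPM in control and 94.3 CPM in D+F+P.

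Over 27 profiles of a cell class in a library with at least 50 cells, Rtp4, Isg15 and Ifi35 followed the sum of the other members most closely, with Spearman correlations of 0.88, 0.86 and 0.82. Ifi27l2a (0.09), Herc6 (0.07) and Ddx58 (-0.17) did not follow it. Enough UMIs for this ranking were held by 10973 genes, a number that counts members too. Of those outside the set, Zbp1 (0.89), Vill (0.87) and Tmem106a (0.85) were most like the summed set. Npc2, Snx2, Scand1, Cd74, Hmox2, Usb1 and Ass1 followed at 0.84 to 0.80. The profiles share libraries and cell classes and differ in depth, so these are descriptions of 27 linked points. Zbp1 is itself interferon-induced and Cd74 is a gene of the gamma-led list.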

How the data were processed

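The authors deposited 1 filtered matrix of UMI counts per library, whole numbers for each gene and cell barcode, made with Cell Ranger 3.1.0 on GRCm38 (mm10), per the submitters' processing notes. The annotation release is not given in the sources used here. Cells were required to hold 300 genes and 500 UMIs or more, and no more than 20% of UMIs from mitochondria. Scanpy 1.11.5 clustered all cells together (2000 variable genes, 30 components, 15 neighbours, Leiden resolution 1), and lymphocyte and myeloid clusters were clustered again. The 32 genes and the lists of other type I interferon-induced and gamma-led genes were left out of the variable genes. Scrublet called 2 to 26 doublets per library, which were left out, but so few calls mean that it is taken not to have worked and that doublets remain. Counts were summed per class and library with NumPy 2.4.6 and pandas 2.3.3, and exact Poisson, Clopper-Pearson and conditional binomial intervals came from SciPy 1.17.1. PCR copies are collapsed by UMIs, and intervals cover counting error only. Classes needed 20 cells in both libraries, and a gene needed 20 UMIs in the pair to be counted. The free-RNA estimates used 5 pigment transcripts, or, for melanoma-like cells, 12 leukocyte transcripts with Ccl5 among them. The separate estimate of leukocyte RNA used the 11 without Ccl5 and was repeated with it. All 32 members are described, with full values for up to 6 at the upper and 4 at the lower end of the ratio in each class. Up to 4 genes at each end were named from the other lists, with 50 UMIs or more in the pair, and Ifnar1, Ifnar2, Ifnb1, Irf1, Socs1 and Gbp2 for their role. The counts of the receptor list are not reported here. Other named members were chosen after their values were seen. The members and lists were chosen with earlier results of these data known.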

Additional observations from a re-analysis of the deposited data

Results flagged for a closer look

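The summed members of the monocyte/macrophage-like cells differed in direction between the sub-clusters when D+F was set against control. In sub-cluster 0, led by C1qa, C1qb and C1qc, the log2 ratio was 0.79 (0.66 to 0.91), from 11 control and 32 D+F cells. In sub-cluster 5, led by Lyz2, it was -0.48 (-0.57 to -0.38), from 22 control and 39 D+F cells. With 1 library per group, this difference between the sub-clusters was not tested. Without Ifi27l2a the levels in control and D+F were 6767 and 11225 CPM in sub-cluster 0 and 14265 and 13595 CPM in sub-cluster 5.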

How the results depend on the processing

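No paired analysis was possible because each group is 1 library and the labels carry no replicate numbers. Of 30 other settings, 19 were planned and the rest were chosen after seeing the data. The summed ratio of melanoma-like cells to control stayed above 0 in all 20 alternatives run for it, at log2 0.17 to 0.52 in aPD-1, 0.15 to 0.44 in D+F and 0.28 to 0.73 in D+F+P. In monocyte/macrophage-like cells it was above 0 in 14 of 14 for aPD-1 (0.04 to 0.53), in 6 of 14 for D+F (-0.48 to 0.79) and in 9 of 14 for D+F+P (-0.34 to 0.18). In NK-like cells it was above 0 in 12 of 12 for each, at 0.35 to 2.47, 0.29 to 1.23 and 0.17 to 0.86. D+F+P against aPD-1 in melanoma-like cells was reversed in clusters 0, 1 and 6 alone, at -0.072, -0.026 and -0.083. D+F+P against D+F in CD8 T-like cells was reversed by a stricter cell filter, at -0.22. The cause of these changes was not tested.

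Counts of members past the fold in melanoma-like cells changed as follows. At a fold of 2, 3, 2 and 4 members were higher than control in the treated libraries, and 0 in D+F+P against aPD-1. With cells thinned to 1000 UMIs, 11 were higher in D+F, and 2 were higher and 1 lower in D+F+P than in aPD-1, and likewise than in D+F. Against D+F, 1 was higher in D+F+P with classes named from each cell's own markers, median-of-ratios scaling, the stricter filter, the top 5% of UMIs left out or free RNA subtracted. Subtracting free RNA gave 2 higher against aPD-1, and subtracting leukocyte RNA 1 lower.

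In monocyte/macrophage-like cells 0 members were lower in aPD-1 than in control at Leiden resolution 2, with a minimum of 50 UMIs, with each cell's own markers, thinned, at a fold of 2, under median-of-ratios scaling and under the stricter filter, and 2 were lower with free RNA subtracted or the top 5% left out. Higher in aPD-1 were 8 thinned, 7 at a fold of 2 and 9 with free RNA subtracted. In D+F, 5 were higher with own markers, 3 thinned and 5 at a fold of 2. Lower in D+F were 3 with own markers or free RNA subtracted, 2 thinned, under the stricter filter, without the top 5% or with a minimum of 1 UMI, and 0 at a fold of 2. In D+F+P, 2 were higher with a minimum of 50 UMIs or thinned, and lower were 1 with that minimum, at a fold of 2 or with interferon genes kept in clustering, and 2 thinned or under the stricter filter.

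The highest class in control became monocyte/macrophage-like, at 14301 CPM with own markers, 17267 thinned, 17226 with free RNA subtracted, 14588 under the stricter filter and 16411 without the top 5%. Without the 3 most abundant members it was regulatory T-like in aPD-1 (10353 CPM) and D+F+P (8219 CPM). Shares of melanoma-like cells in the 4 libraries were 7.59%, 15.6%, 14.0% and 17.8% at a bound of 10 UMIs, 70.7%, 83.4%, 78.8% and 86.0% at 3, and 36.3%, 50.6%, 48.7% and 54.5% in cells thinned to 500. At 10 of 2000 UMIs they were 37.3% in control, 55.5% in aPD-1 and 52.2% in D+F, and another seed gave 56.2% in aPD-1. Counts for NK-like, CD8 T-like and treated against treated monocyte/macrophage-like cells ranged over settings from 0 to 14, 0 to 6 and 0 to 17, and are not given. Depth limits the rarer classes: 9 CD8 T-like and 3 conventional DC-like control cells allowed no comparison with control.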
